A study of Mus musculus with 4 samples.

Results

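The 8 genes described here, Isl1, Tbx1, Six2, Eya1, Prdm1, Tlx1, Foxc1 and Foxc2, encode transcription regulators. They are grouped here as progenitor factors of the second heart field, though not all are particular to it. They were chosen by symbol, 8 of the 32285 genes in the count tables, and each was found once. Single-cell RNA-seq had been performed on dissected E10.5 mouse hearts to ask how homozygous Cyp51 I383V/I383V hearts (Ho) differ from wild-type hearts (Wt). Cyp51 encodes a sterol demethylase of cholesterol synthesis. The 2 Wt and 2 Ho libraries were all C57BL/6J at embryonic day 10.5, and the labels give CRISPR/Cas9 as the treatment of every library, Wt included. The substitution had been knocked into the germline by homology-directed repair, so all cells of a Ho embryo carry it, and the founders were backcrossed. How many hearts made up a library is not given in the sources used here, so p-values measure only the spread between these libraries.

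The second heart field is a pool of mesodermal progenitors in the pharyngeal and splanchnic mesoderm behind the heart tube. Its cells are added to both poles of the tube, giving outflow tract and right ventricle at one end and atrial and venous myocardium at the other. Isl1, a LIM homeodomain factor, is the classical marker of the field and is switched off as most cells become muscle, with the sinus node region as a known exception. Tbx1, a T-box factor of pharyngeal mesoderm and endoderm, is needed for outflow tract growth, and Six2 and Eya1 belong to families of homeodomain factors and their coactivators that act in one complex. Prdm1 is a zinc finger repressor of pharyngeal and outflow progenitors, Tlx1 is a homeodomain factor best known from spleen formation, and the forkhead factors Foxc1 and Foxc2 act in mesenchyme, endothelium and cardiac neural crest and lie upstream of Tbx1.

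In GENCODE M21 on GRCm38, the build of the count tables, Isl1 lies at chr13:116298281-116309689, Tbx1 at chr16:18580979-18590671, Six2 at chr17:85684277-85688274 and Eya1 at chr1:14168954-14310235, all on the minus strand. Prdm1 lies at chr10:44437177-44528501 on the minus strand, Tlx1 at chr19:45150680-45156943, Foxc1 at chr13:31806633-31812476 and Foxc2 at chr8:121116171-121118895, the last 3 on the plus strand. All 8 are protein-coding. RefSeq promoters on GRCm38.p6 were matched for 6 of the 8 genes, 7 sequences in all because Tbx1 had 2 starts. The 250 bases before the start are printed for Isl1, Tbx1 and Six2. The highest mean levels of these 3 genes were in Crabp1 or Epcam cells, described below, as were those of Prdm1, Tlx1 and Foxc1. The printed bases read 5′ to 3′ on the minus strand, with CpG dinucleotides in capitals.
Isl1, chr13:116309689-116309938: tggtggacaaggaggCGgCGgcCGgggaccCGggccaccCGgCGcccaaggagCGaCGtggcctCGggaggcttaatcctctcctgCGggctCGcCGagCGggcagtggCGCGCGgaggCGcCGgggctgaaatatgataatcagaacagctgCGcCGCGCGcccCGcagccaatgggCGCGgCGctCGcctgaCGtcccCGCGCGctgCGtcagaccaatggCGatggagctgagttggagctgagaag
Tbx1, upstream start, chr16:18590672-18590921: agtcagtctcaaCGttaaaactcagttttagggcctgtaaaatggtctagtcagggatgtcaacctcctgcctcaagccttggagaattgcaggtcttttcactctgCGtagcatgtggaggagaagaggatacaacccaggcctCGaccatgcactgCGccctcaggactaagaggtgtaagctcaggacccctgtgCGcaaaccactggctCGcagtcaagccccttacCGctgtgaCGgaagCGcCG
Tbx1, downstream start, chr16:18588900-18589149: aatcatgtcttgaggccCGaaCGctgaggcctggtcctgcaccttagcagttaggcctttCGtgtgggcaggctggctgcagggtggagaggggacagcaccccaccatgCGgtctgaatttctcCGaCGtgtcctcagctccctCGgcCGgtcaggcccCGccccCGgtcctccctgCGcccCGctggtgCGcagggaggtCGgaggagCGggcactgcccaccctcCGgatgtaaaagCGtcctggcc
Six2, chr17:85688255-85688504: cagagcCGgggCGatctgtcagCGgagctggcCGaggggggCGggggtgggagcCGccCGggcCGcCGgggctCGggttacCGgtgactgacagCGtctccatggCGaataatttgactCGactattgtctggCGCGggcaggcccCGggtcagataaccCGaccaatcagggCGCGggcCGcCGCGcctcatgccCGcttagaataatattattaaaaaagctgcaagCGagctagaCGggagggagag

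The promoters differed in CpG content. Isl1 had 33 CpG dinucleotides, Six2 26, and the Tbx1 starts 17 and 10, against a median of 6 over 32851 promoters (quartiles 2 and 16). Foxc1 had 29, and Prdm1 and Tlx1 had 15 each, so that 4 of the 7 promoters lay above the upper quartile. The letters CCACCCA, the core of the Gli motif of Hedgehog signalling, were in none of the 7 sequences of the members on either strand, counting also the 50 bases after the start, and in 9.3% of all promoters. The letters AGGTGTG, part of the T-box binding sequence, were also in none, against 5.84% of all promoters. The forkhead letters TGTTTAC and TGTTTGC were each in the Prdm1 promoter alone among the members, against 3.65% and 5.07% of all promoters.

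Cells were sorted in silico by the marker of 6 lineages: Tnnt2 for cardiomyocytes, Shox2 together with Tnnt2 for sinus venosus muscle, Crabp1 for mesenchyme, Epcam for epithelium, Cdh5 for endothelium and Stmn4 for outflow mesenchyme. A cell had to hold at least 2 UMIs (unique molecular identifiers, one per captured transcript) of the marker and reach a level of 1/10 of the marker's 99th percentile. Cells of several gates were set apart as mixed, except that cells over both the Crabp1 and Stmn4 limits alone went to the Stmn4 gate. Of 29168 cells used, 8165 fell in the Tnnt2 gate, 1491 in Shox2, 3015 in Crabp1, 726 in Epcam, 5117 in Cdh5 and 956 in Stmn4. Another 686 were mixed and 9012 passed no marker. The libraries held 97004419 UMIs (Wt1), 105384571 (Wt2), 113596628 (Ho1) and 98459742 (Ho2) in the cells used, with median UMIs per cell of 10551.5, 14231, 15662.5 and 15843. Values of the 4 libraries are given below in this order, and values of 3 libraries leave out Ho1. Any pair of libraries shared 14 to 34 cell barcodes.

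The labels of the gates were compared with marker lists. All 7 endothelial markers were highest in the Cdh5 gate, all 7 epithelial markers in the Epcam gate, and 5 of 6 sinus venosus markers in the Shox2 gate. The Stmn4 gate led for 5 of 6 outflow mesenchyme markers, but also for 5 of 6 mesenchyme markers, namely Prrx1, Prrx2, Twist1, Pdgfra and Meox1, and for 3 of 5 neuron and 2 of 3 neural crest markers. In the Crabp1 gate only Crabp1 itself led that list, while 4 of 4 epicardial and 1 of 3 neural crest markers had their highest mean of the gates there, so the population is called Crabp1 cells below. The summed level of the epicardial markers was 56.1, 94.8, 388 and 131 CPM in Crabp1 cells, the highest value from the few such cells of Ho1, and 74.9, 85.7, 95.9 and 118 CPM in Shox2 cells. Of 8 cardiomyocyte markers, 5 were highest in the Tnnt2 gate and 3 in the Shox2 gate.

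One library stood apart before any comparison. Ho1 had no Epcam cell among 6980, which allows a share of up to 0.043%, while the other libraries had 325 (Wt1), 152 (Wt2) and 249 (Ho2). It had 35 Crabp1 cells, against 2207 in Wt1, 414 in Wt2 and 359 in Ho2. Its summed level of 5 blood genes was 1100 CPM (UMIs of a gene per 1000000 UMIs of the cells summed), against 165 in Wt1, 290 in Wt2 and 382 in Ho2, with Hbb-y, an embryonic globin, the most abundant. It held 28888 UMIs of Xist and none from the Y chromosome, where the other libraries held 2 to 5 and 8797 to 9908. Its few Crabp1 cells also carried other markers, with 1950 CPM of cardiomyocyte genes against 329 to 699 CPM in the other libraries and 1732 CPM of outflow mesenchyme genes against 189 to 340 CPM. Wt1 differed too, with 24.8% of its cells in the Crabp1 gate. Fold changes of Ho against Wt are therefore also given without Ho1 for the members described, and outside Epcam cells, where Ho1 had no cells, no member was called without it. The part of the dissected tissue, of sex or of library in the results was not tested.

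**Figure D1:**
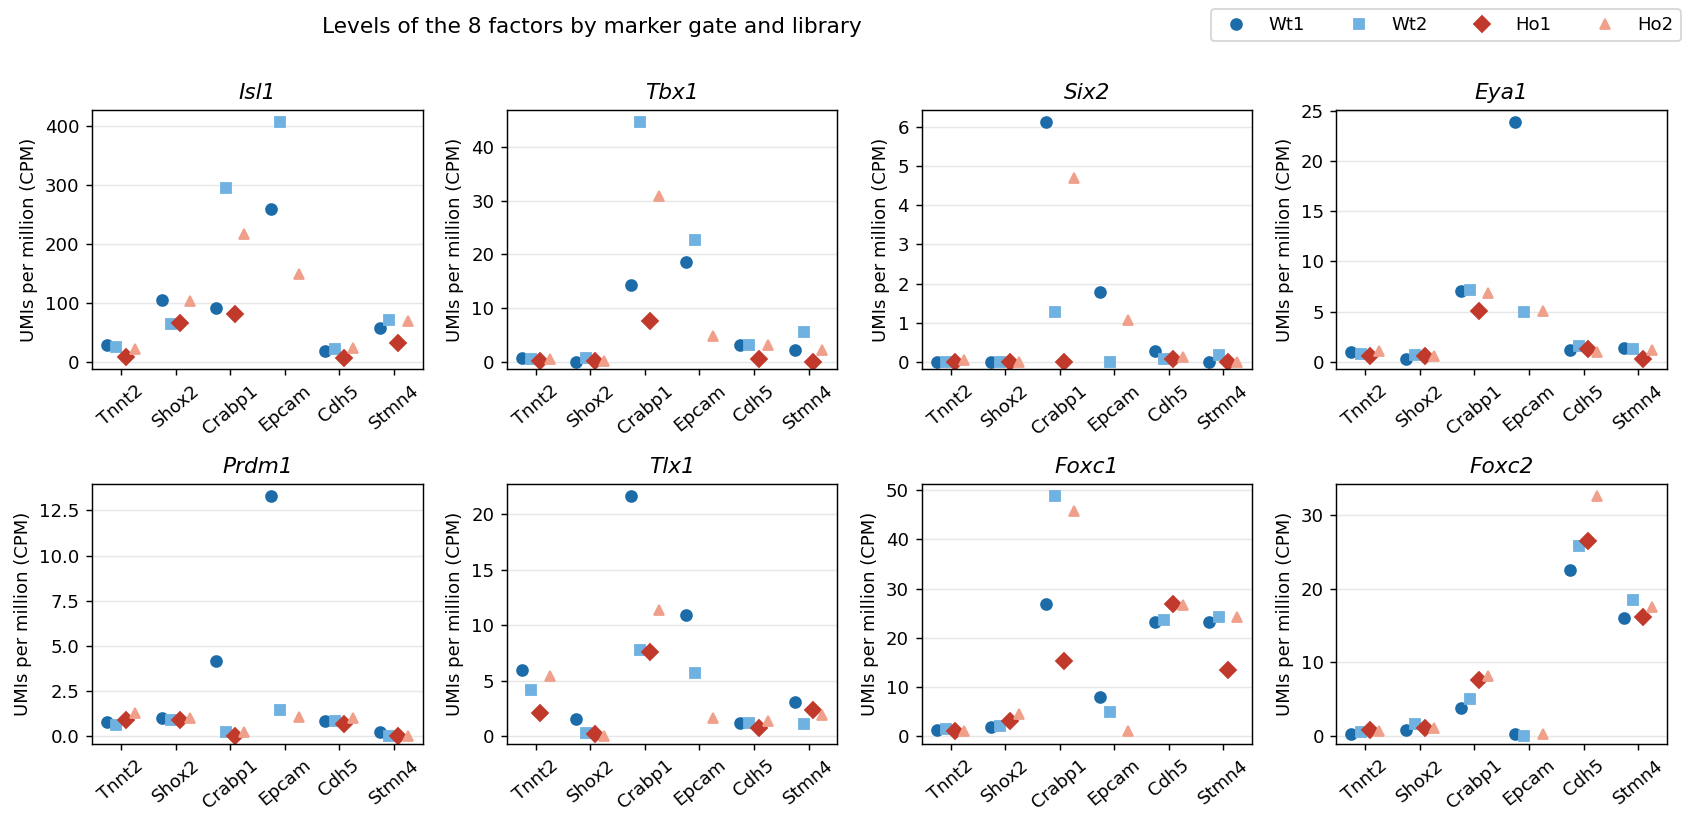
Levels of the 8 genes, in CPM of the gate (vertical axes, linear), in the 6 marker gates (horizontal axes), with 1 point per library and no point for Ho1 in the Epcam gate, which had no cells. Isl1, Tbx1, Six2 and Eya1 were highest in Crabp1 or Epcam cells, Foxc2 in Cdh5 and Stmn4 cells.

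Isl1 was detected in every gate, with its highest levels in Epcam and Crabp1 cells and its lowest in Tnnt2 and Cdh5 cells. It had 259, 408 and 150 CPM in Epcam cells, 91.9, 295, 81.1 and 217 CPM in Crabp1 cells and 105, 64.7, 65.9 and 104 CPM in Shox2 cells. Its mean level was 272 ± 130 CPM (SD, n = 3) in Epcam cells, 171 ± 103 (n = 4) in Crabp1 cells, 84.8 ± 22.5 in Shox2 cells, 57.1 ± 18.2 in Stmn4 cells, 20.4 ± 9.21 in Tnnt2 cells and 17.1 ± 7.8 in Cdh5 cells. In this order the ranges of neighbouring gates overlapped, apart from Stmn4 and Tnnt2, which did not. In edgeR's quasi-likelihood test of a gate against the mean of the other gates, with the library as a block and Benjamini-Hochberg adjustment over 13404 genes, Isl1 was higher in Epcam cells (log2 fold change 1.96, SE 0.23, adjusted p = 4.83e-07), Crabp1 cells (1.52, SE 0.22, adjusted p = 8.13e-06) and Shox2 cells (0.74, SE 0.22, adjusted p = 0.00672). It was lower in Tnnt2 cells by 1.74 (SE 0.24) and in Cdh5 cells by 2.28 (SE 0.25) on the log2 scale, and the Stmn4 difference of -0.21 did not pass (adjusted p = 0.511). Without Ho1 the Shox2 call was lost, at 0.51 (adjusted p = 0.088).

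Tbx1 was higher in the same pair of gates, where Eya1 also had its highest levels, and most gated Six2 UMIs lay in Crabp1 cells. Tbx1 had 355, 212, 3 and 158 UMIs in Crabp1 cells and 63, 32 and 18 in Epcam cells. In Shox2 cells it had 0, 3, 1 and 1 UMIs. Tbx1 was thus higher in Crabp1 cells (log2 fold change 3.80, SE 0.26) and Epcam cells (2.56, SE 0.38) than in the mean of the other gates. Six2 had 153, 6, 0 and 24 UMIs in Crabp1 cells, 6 and 4 in Epcam cells of Wt1 and Ho2, and 0 in Shox2 cells of all 4 libraries. It passed the expression filter through the sums in which it was high, so its calls are not support for a difference. Of its 511 UMIs in all, 183 lay in Crabp1 cells and 299 in cells that passed no marker. Eya1 had 176, 34, 2 and 35 UMIs in Crabp1 cells, at near equal levels of 7.06, 7.16, 5.07 and 6.84 CPM, and 23.9, 4.96 and 5.07 CPM in Epcam cells, against at most 1.60 CPM in any library of the other gates. It too passed the filter only through the gates where it was high, so its calls are not support for a difference.

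Tlx1 and the Foxc genes had other patterns. Tlx1 had 539, 37, 3 and 58 UMIs in Crabp1 cells and 94, 150, 104 and 171 in Tnnt2 cells. It was the one member higher in both Crabp1 (2.60, SE 0.26) and Tnnt2 cells (1.32, SE 0.24), and lower in Shox2 cells, where 8 UMIs were found in 4 libraries. Foxc2 had 332, 695, 774 and 563 UMIs in Cdh5 cells, at 22.6, 25.8, 26.5 and 32.6 CPM, and was higher in Cdh5 (3.97, SE 0.12), Stmn4 (3.15, SE 0.16) and Crabp1 cells (1.08, SE 0.21). In Epcam cells it had 1, 0 and 1 UMIs, and in Tnnt2 and Shox2 cells at most 1.59 CPM in any library. Like Eya1, Foxc2 entered the test through the gates where it was high, so its calls are not support for a difference. Foxc1 was higher in Crabp1 (2.46, SE 0.19), Cdh5 (1.98, SE 0.17) and Stmn4 cells (1.60, SE 0.21), and its mean level in Cdh5 cells was 25.1 ± 1.95 CPM (SD, n = 4). Prdm1 did not pass the expression filter of this test. Of its 466 UMIs, 104 came from Crabp1 cells and 45 from Epcam cells of Wt1, against at most 4 in either gate of any other library, and 117 came from Tnnt2 cells.

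The calls are counted here as a description of the 7 members that passed the filter, and not as support. Six2, Eya1 and Foxc2 are among them and Prdm1 is left out. In Crabp1 cells all 7 were higher, against 22.7% of all genes. In Epcam cells 4 were higher, against 25% of all genes, and 2 were lower (Foxc1 and Foxc2), against 24.4%. In Tnnt2 cells 1 was higher and 5 were lower, against 35.3% and 31.1% of all genes, and in Shox2 cells 1 was higher and 6 were lower, against 30.6% and 28.2%. One of these 6 was Six2, which had no UMI in Shox2 cells, so its fitted fold change is no bound. In Cdh5 cells 2 were higher and 2 lower, against 32.6% and 33.1%, and in Stmn4 cells 2 were higher and none lower, against 26.8% and 25.1%. None was lower in Crabp1 cells, where 24.7% of all genes were. The median log2 fold change of the 7 members was 2.46 in Crabp1, 1.96 in Epcam, 0.13 in Cdh5, -0.21 in Stmn4, -1.97 in Shox2 and -2.30 in Tnnt2 cells, while the median over all genes was within 0.03 of 0 in each gate, at -0.03 in Crabp1 cells.

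A list of 27 other genes of the second heart field network (growth factors, transcription factors and their partners) was counted in the same gates. The counts of the 26 tested are set beside the shares of all genes called, and several lay near them. In Tnnt2 cells 15 were higher and 7 lower, against 35.3% and 31.1% of all genes, led by Nkx2-5, a cardiac homeodomain factor (3.85, SE 0.17), and Tbx5, a T-box factor of the first field and the venous pole (3.82, SE 0.16). In Shox2 cells 12 were higher and 6 lower, against 30.6% and 28.2%, again with Tbx5 (4.58, SE 0.17). In Crabp1 cells 16 were higher and 2 lower, against 22.7% and 24.7%, led by the forkhead factors Foxf1 (4.50, SE 0.18) and Foxf2 (4.42, SE 0.33) and by Tbx2, a T-box repressor (2.78, SE 0.24). In Epcam cells 8 were higher and 9 lower, against 25% and 24.4%, among them the cardiac factors Tbx20 (-5.29, SE 0.72) and Gata4 (-4.77, SE 0.62). In Cdh5 cells 6 were higher and 16 lower, against 32.6% and 33.1%, led by Tbx3 (-4.51, SE 0.36), Fgf8 (-3.95, SE 1.65) and Tbx2 (-3.92, SE 0.38). Fgf8 had only 3, 2, 3 and 4 UMIs there. The mean it is set against includes the Epcam cells of Wt1, with 445 UMIs. In Stmn4 cells 8 were higher and 8 lower, against 26.8% and 25.1%, with Tbx5 (-3.67, SE 0.63) and Osr1, a zinc finger factor of the posterior field (-2.88, SE 0.62), while Fgf8 did not pass (-3.86, SE 1.75, adjusted p = 0.0718). The Epcam increase of Fgf8, a growth factor of pharyngeal epithelium, came from 1 library, with 445 UMIs in Wt1, 1 in Wt2 and 0 in Ho2.

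Over the 23 sums of a gate in a library, the genes whose log2(CPM + 1) was most alike were named for each member. For Isl1 they were Atxn7l3b (Pearson r = 0.95), Mpnd (0.92) and Iqcb1 (0.92). For Tbx1 they were Lrrc49, Ankrd10 and Zik1 (0.93, 0.93 and 0.92), and for Six2 the transcripts 3110039M20Rik, Mir17hg and Cacybp (0.91, 0.91 and 0.90). For Eya1 they were Nkx2-6, a homeodomain factor of the pharynx (0.93), Nup43 (0.91) and Spin2c (0.90), for Prdm1 Flrt1, Gabrg3 and Mrln (0.84, 0.82 and 0.81), and for Tlx1 Col9a2, Hip1 and Mrpl11 (0.85, 0.82 and 0.79). For Foxc1 they were Igfbp4, Cntln and Cped1 (0.96, 0.95 and 0.94), and for Foxc2 Rhoj, Rac1 and Nid1 (0.98, 0.98 and 0.97). Within the members the closest pairs were Tbx1 with Eya1 (r = 0.88) and Foxc1 with Foxc2 (r = 0.82). These sums share 4 libraries and 6 gates, so the values describe the pattern only.

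Cells with Tbx1, Tlx1, Six2 or Eya1 often held Isl1 as well. Of cells with a Tbx1 UMI, 66.8%, 80%, 39.1% and 79.8% also held Isl1, the Ho1 share being of 23 cells, while 31.3%, 28.1%, 10.8% and 32.7% of all cells did. Of cells with a Tlx1 UMI, 67%, 76.3%, 48.9% and 79.9% held Isl1. The same was seen among Tnnt2 cells alone, where Isl1 was found in 60.6%, 76.9%, 39.7% and 72.9% of the 66, 91, 73 and 96 cells with Tlx1, against 9.92%, 8.61%, 4.8% and 7.94% of the other Tnnt2 cells. The median depth of these Tlx1 cells was 16438, 18942, 18725 and 19231 UMIs, against 11209.5, 17208, 17749.5 and 19070 UMIs in the others. Of cells with Six2, 43.6% of 298 in Wt1, 72% of 25 in Wt2, 0 of 5 in Ho1 and 86.7% of 75 in Ho2 held Isl1. The shares with Isl1 were 51.1%, 52.9%, 18.5% and 52.8% of Eya1 cells and 40.0%, 44.4%, 11.3% and 47.0% of Foxc1 cells. For Prdm1 cells they were 41.2%, 35.7%, 9.21% and 27.1%, above that of all cells in Wt and below it in Ho. For Foxc2 cells the shares with Isl1 were 22.3%, 24.6%, 10.6% and 26.4%, each below that of all cells. Detection of both genes rises with depth, and these shares were not thinned or tested.

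In the gates where Isl1 was low, its UMIs were concentrated in a few cells. In Tnnt2 cells, 70.2%, 81.4%, 63.2% and 76.1% of the Isl1 UMIs lay in cells with at least 3 of them, which were 4.71%, 5.61%, 1.73% and 4.4% of the gate. In Cdh5 cells the corresponding shares of UMIs were 54.5%, 59.9%, 15% and 65%, so that Ho1 was low. After each cell was thinned to 2000 UMIs, Isl1 was seen in 4.31%, 5.17%, 1.44% and 3.47% of Tnnt2 cells, in 3.47%, 4.09%, 1.29% and 4.7% of Cdh5 cells, and in 44.3%, 63.7% and 23.8% of Epcam cells. Without thinning the Tnnt2 shares were 12.5%, 11.4%, 5.68% and 11.5%. Tlx1 was seen in 0.843%, 0.843%, 0.529% and 1.36% of thinned Tnnt2 cells, near the level of a single UMI, so no order was read from it. No gate was known to lack Isl1, and free RNA in the droplets was not measured.

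**Figure D2:**
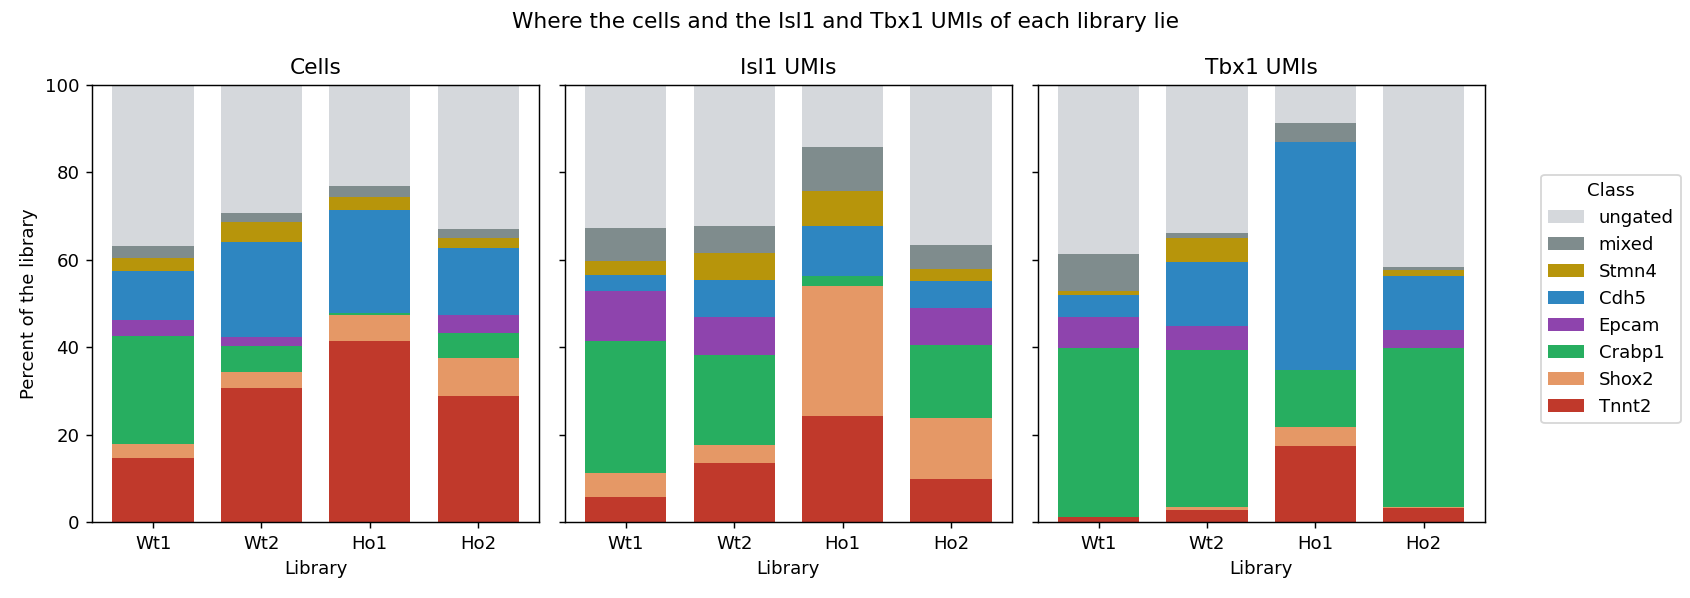
Share of each library's cells (left), Isl1 UMIs (middle) and Tbx1 UMIs (right), in percent of the library, that lay in each of the 6 gates, in mixed cells and in ungated cells. Crabp1 cells were 24.8% of the cells of Wt1 and 0.501% of those of Ho1, and held 30.2% and 2.13% of their Isl1 UMIs.

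The amounts of the gates also differed between libraries. Shox2 cells made up 3.06% and 3.77% of the Wt libraries and 6.03% and 8.6% of the Ho libraries, both Ho above both Wt. Stmn4 cells made up 3.12% and 4.57% of the Wt and 3.08% and 2.22% of the Ho libraries, both Ho below both Wt. With 2 libraries a side an exact permutation test cannot go below p = 0.3333 (two-sided), which both differences reached. With the marker limits doubled, Stmn4 shares overlapped (1.99%, 3.16%, 2.15% and 1.35%) and Crabp1 shares did not (16.0%, 2.77%, 0.215% and 2.53%). Tnnt2 cells (14.8%, 30.7%, 41.3% and 28.9%), Crabp1 cells (24.8%, 5.79%, 0.501% and 5.86%), Epcam cells (3.65%, 2.12%, 0% and 4.06%) and Cdh5 cells (11.1%, 21.7%, 23.5% and 15.4%) overlapped between the genotypes, with exact permutation p = 0.667 or 1. In whole libraries, fewer cells of a type and less RNA per cell cannot be told apart, so the genotypes were compared within gates first.

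Within Tnnt2 cells, Isl1 had 439, 912, 364 and 664 UMIs, or 28.0, 25.3, 7.26 and 20.9 CPM. Both Ho libraries lay below both Wt libraries, Ho1 far below and Ho2 slightly. The log2 fold change of Ho against Wt was -0.97 (SE 0.33, edgeR's quasi-likelihood test, Benjamini-Hochberg adjusted p = 0.483), and without Ho1 it was -0.40 (adjusted p = 0.24). In these cells 7 of 14192 genes, 0.0493%, were called at an adjusted p under 0.05 and none of the 7 members that entered the test was. Tbx1 had 11, 17, 4 and 14 UMIs there, and Tlx1 5.99, 4.16, 2.07 and 5.38 CPM, with a log2 fold change of -0.47 (SE 0.35, adjusted p = 0.743). Prdm1 went the other way, with 12, 21, 44 and 40 UMIs (0.68, SE 0.34, adjusted p = 0.625), as did Foxc2, with 4, 19, 41 and 21 UMIs (0.79, SE 0.41, adjusted p = 0.636). Without Ho1 these were 0.0888 for Tlx1, 0.90 for Prdm1 and 0.55 for Foxc2.

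In Shox2 cells, Isl1 did not separate the genotypes. It had 105, 64.7, 65.9 and 104 CPM, from 416, 284, 447 and 925 UMIs, and a log2 fold change of -0.01 (SE 0.22, adjusted p = 0.999). Ho1, which had the lowest Isl1 level in Tnnt2, Cdh5 and Stmn4 cells, was level with Wt2 here. Without Ho1 the Isl1 difference was 0.26. Foxc1 was higher in both Ho libraries, with 7, 9, 20 and 40 UMIs (0.97, SE 0.40, adjusted p = 0.73). A wider Shox2 gate left out only cells over the Cdh5 or Epcam limits. It took in cells without Tnnt2 and cells over the Crabp1 or Stmn4 limits, and the Foxc1 difference there was -0.12. In the Shox2 gate with Tnnt2, the difference without Ho1 was 1.19. Only 3 of 11451 genes, 0.0262%, were called in this gate.

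In Crabp1 cells, the Wt libraries lay far apart, and the Ho2 values of Isl1, Tbx1 and Foxc1 lay between them. Isl1 stood at 91.9 and 295 CPM in Wt and at 81.1 and 217 CPM in Ho (log2 fold change -0.25, SE 0.58, adjusted p = 1.00). Tbx1 stood at 14.2, 44.6, 7.61 and 30.9 CPM, the Ho1 value resting on 3 UMIs (-0.22, SE 0.61), and Foxc1 at 26.8, 48.9, 15.2 and 45.7 CPM (-0.05, SE 0.44). Six2 had 6.14, 1.26, 0 and 4.69 CPM and Tlx1 21.6, 7.79, 7.61 and 11.3 CPM, with Wt1 highest for both. Foxc2 was higher in both Ho libraries, at 3.81 and 5.05 CPM in Wt against 7.61 and 8.21 CPM in Ho (0.87, SE 0.41, adjusted p = 1.00), but the Ho1 value rests on 3 UMIs, with an exact Poisson interval of 1.57 to 22.2 CPM that holds both Wt values. Without Ho1 the log2 fold changes were 0.22 for Isl1, 0.15 for Tbx1, 0.31 for Foxc1, 0.11 for Six2, -0.49 for Tlx1 and 0.91 for Foxc2. No gene of 11465 was called (0%), while 185 had an unadjusted p under 0.05 and DESeq2 called 1.

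In Epcam cells the comparison was of 2 Wt libraries with Ho2 alone, which is assumed to vary like the Wt libraries. The fit has no spread between Ho libraries, so no call is read from it, also where a value passed the threshold. Tbx1 had 18.6 and 22.7 CPM in Wt and 4.80 CPM in Ho2, from 63, 32 and 18 UMIs, a log2 fold change of -1.92 (SE 0.51). Prdm1 was lower as well (-2.80, SE 0.86), from 45, 2 and 4 UMIs. However, Wt2, at 1.42 CPM, was near Ho2, at 1.07 CPM, and Wt1, at 13.3 CPM, was not. The median log2 fold change of the 6 members tested was -2.10, against -0.02 over all genes. Prdm1, Tlx1 and Foxc1 passed the expression filter only through Wt libraries, so this median is not support for a difference. Isl1 had 259, 408 and 150 CPM (-0.97, SE 0.36), Tlx1 10.9, 5.67 and 1.60 CPM (-2.28, SE 0.80) and Eya1 23.9, 4.96 and 5.07 CPM (-1.51, SE 0.52). Foxc1 had 27, 7 and 4 UMIs. Genes of different foregut epithelia moved as well, in both directions, named after their values were seen. Foxa2 (2.00, SE 0.36) and Shh (1.85, SE 0.30), of foregut endoderm, and Nkx2-1 (1.33, SE 0.30), of lung and thyroid, were higher in Ho2. Pax9 (-3.38, SE 0.46), of the pharynx, and the thyroid genes Pax8 (-1.56, SE 0.35), Foxe1 (-1.43, SE 0.35) and Hhex (-1.39, SE 0.34) were lower. Their part in the Tbx1 difference was not tested. With DESeq2, without the filter on low counts, with doublets kept or with the marker limits doubled, neither Tbx1 nor Prdm1 passed, and the Tbx1 fold change was then between -1.90 and -2.18.

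In Cdh5 cells, no member was called. Foxc1 had 23.1 and 23.7 CPM in Wt and 26.8 and 26.7 CPM in Ho (0.23, SE 0.09, adjusted p = 0.907), and Foxc2 22.6 and 25.8 against 26.5 and 32.6 CPM (0.31, SE 0.12, adjusted p = 0.907). Isl1 had 18.0, 21.6, 5.92 and 23.1 CPM, with only Ho1 low, and its log2 fold change went from -0.49 (SE 0.48) to 0.23 without Ho1. Tbx1 had 3.20, 3.20, 0.410 and 3.07 CPM, again with only Ho1 low, and went from -1.01 (SE 0.65) to -0.05 without Ho1. No gene of 13409 was called in Cdh5 cells (0%; 688 at an unadjusted p under 0.05, and 22 by DESeq2) and none of 10790 in Stmn4 cells (0%; 618 and 1). In Stmn4 cells Isl1 had 57.0, 71.5, 31.5 and 68.5 CPM (-0.38, SE 0.25), Foxc1 23.3, 24.1, 13.5 and 24.2 CPM (-0.34, SE 0.23) and Foxc2 16.1, 18.5, 16.1 and 17.5 CPM (-0.02, SE 0.18). Without Ho1 the Cdh5 values of Foxc1 and Foxc2 were 0.20 and 0.43, and the Stmn4 values of Isl1, Foxc1 and Foxc2 were 0.10, 0.05002 and 0.03.

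**Figure D3:**
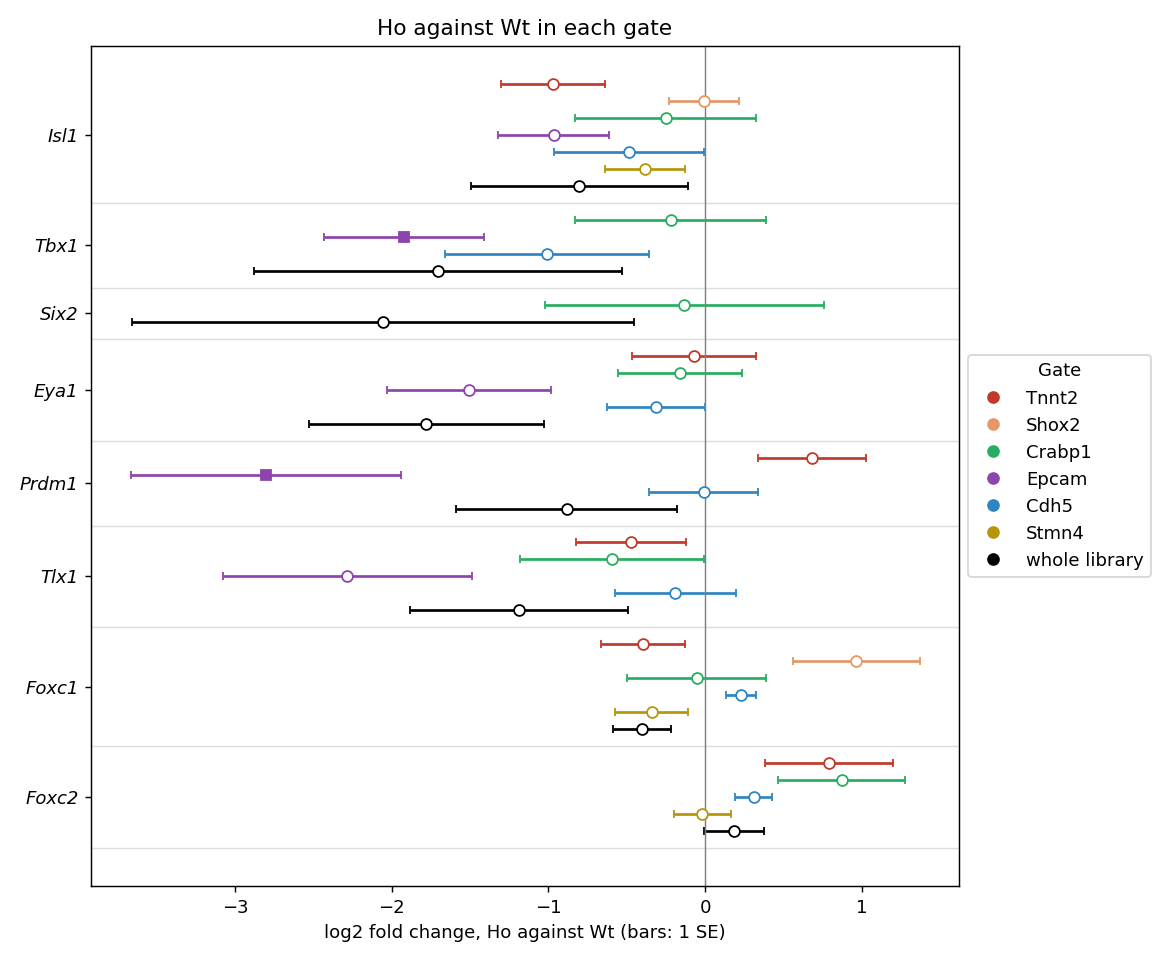
Log2 fold change of Ho against Wt (horizontal axis, bars of 1 SE from edgeR's quasi-likelihood fit) for each member with at least 50 UMIs in a gate or in whole libraries, coloured by gate. Filled squares mark the values at an adjusted p under 0.05, which were Tbx1 and Prdm1 in Epcam cells, and all other points are open. Both values set 2 Wt libraries against Ho2 alone, so no call is read from them.

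A single fit asked whether the genotype effect differed between gates. It called 3 of 14739 genes, 0.0204%, and no member. The smallest adjusted p-values of members were those of Foxc1 (adjusted p = 0.722), Tlx1 (adjusted p = 0.884) and Prdm1 (adjusted p = 0.884).

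Over all genes, 0.0493% were called between the genotypes in Tnnt2 cells and 0.0262% in Shox2 cells. Among the 27 network genes, 1 was called in each of these gates. In Tnnt2 cells 1 of 23 was, Tbx3, a T-box repressor of the conduction system, with 8.73 and 8.21 CPM in Wt and 15.0 and 15.1 CPM in Ho (0.83, SE 0.10, adjusted p = 0.0304). In Shox2 cells 1 of 20 was, Hes1, a Notch and Hedgehog responsive repressor, with 26.5 and 35.8 CPM in Wt and 65.4 and 68.4 CPM in Ho (1.09, SE 0.14, adjusted p = 0.029). In both cases the genotypes did not overlap, but with doublets kept no gene was called in either gate, and without Wt1 or without Wt2 none was called in Shox2 cells. In Epcam cells, where Ho2 was the only Ho library, 17 of the 22 tested had a fold change below 0. Among them were Tbx3 (34.8, 82.1 and 22.1 CPM), Mef2c (11.5, 30.5 and 3.20 CPM) and Fgf8 (445, 1 and 0 UMIs). For Fgf8 Wt2 was level with Ho2, so the difference rested on Wt1. Genes high in 1 Wt library alone, such as Fgf8, could enter this fit. Neither this count nor the Epcam median below is thus support for a difference. None of the 22 tested in Crabp1, 20 in Cdh5 or 16 in Stmn4 cells was called. The median log2 fold change of the network genes was 0.11 in Tnnt2, 0.07 in Shox2, 0.25 in Crabp1, -0.94 in Epcam, 0.08 in Cdh5 and -0.02 in Stmn4 cells, where the median over all genes tested was within 0.03 of 0 throughout, at -0.02 in Epcam cells.

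In whole libraries, 7 of the 8 members had a negative fold change and none was called, as was no gene of 16978 (0%; 786 at an unadjusted p under 0.05, and 21 by DESeq2). Isl1 had 7590, 6770, 1500 and 6651 UMIs, or 78.2, 64.2, 13.2 and 67.6 CPM, so that Ho2 lay between the Wt libraries and Ho1 alone was low (-0.80, SE 0.69, adjusted p = 0.826). Tbx1 had 916, 588, 23 and 434 UMIs, both Ho below both Wt (-1.71, SE 1.17, adjusted p = 0.802). For Six2 (383, 27, 5 and 96 UMIs), Eya1 (622, 163, 82 and 154), Prdm1 (239, 59, 79 and 89) and Tlx1 (965, 298, 182 and 387), Wt1 stood above all other libraries. Foxc1 had 1759, 1595, 1159 and 1409 UMIs (-0.40, SE 0.19, adjusted p = 0.802), and Foxc2 717, 1098, 1145 and 930 (0.19, SE 0.19, adjusted p = 0.848). Without Ho1 the whole-library log2 fold changes were -0.08 for Isl1, -0.77 for Tbx1, -1.12 for Six2, -1.35 for Eya1, -0.75 for Prdm1, -0.71 for Tlx1, -0.22 for Foxc1 and 0.09 for Foxc2. Cyp51 itself had 72.1, 62.3, 54.5 and 67.1 CPM. Its substitution does not remove the transcript, so this level does not check the labels.

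Each library was then given the same share of each class. The classes were 5 gates, the mixed and the ungated cells, 7 in all. Epcam cells were left out because Ho1 had none, while the observed levels include them, so both steps enter the change. Crabp1 cells had a weight of 9.24%, and Ho1 had 35 of them, with 32 Isl1 and 3 Tbx1 UMIs. The equal-composition values of Ho1, and the ratios that use them, rest in part on these few UMIs. The log2 ratio of the Ho to the Wt mean went from -0.82 to -0.58 for Isl1, from -1.70 to -1.11 for Tbx1, from -2.04 to -1.40 for Six2 and from -1.80 to -1.13 for Eya1. It went from -0.92 to -0.43 for Prdm1, from -1.21 to -0.57 for Tlx1, from -0.44 to -0.14 for Foxc1, and from 0.13 to 0.29 for Foxc2. With all 4 libraries the difference was thus smaller for 7 members and larger for Foxc2. With all classes weighted alike it was also larger for Prdm1, at -1.48. Without Wt1 it instead grew for Isl1, from -0.67 to -0.75. The equal-composition ratios of Six2, Prdm1 and Tlx1 were then above 0, at 0.77, 0.46 and 0.12. At equal composition Isl1 stood at 57.5, 73.7, 20.3 and 67.4 CPM, with Ho2 between the Wt libraries. Tbx1 stood at 6.19, 7.36, 0.858 and 5.44 CPM and Eya1 at 4.21, 1.77, 1.09 and 1.65 CPM, both Ho below both Wt (exact permutation p = 0.3333, the smallest possible). Foxc2 stood at 7.88, 9.57, 10.4 and 11.0 CPM, both Ho above both Wt, with the same p. Without Ho1 the equal-composition ratio was 0.04 for Isl1, -0.32 for Tbx1, -0.86 for Eya1 and 0.33 for Foxc2. Eya1 rested on Wt1, without which its ratio was -0.37.

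**Figure D4:**
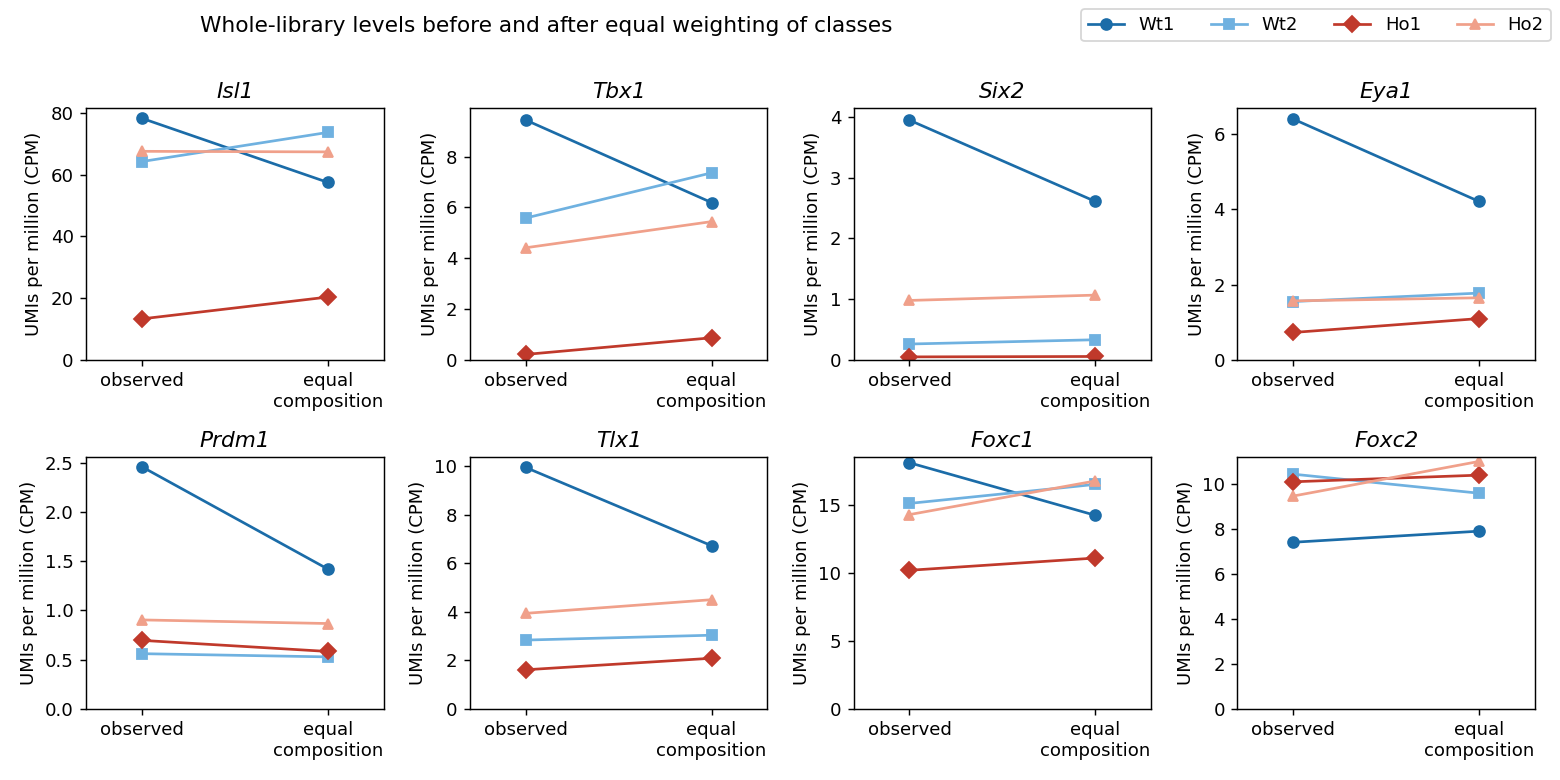
Whole-library level of each member in CPM (vertical axes, from 0) as observed (left points) and after the 7 classes were given the same weight in every library (right points), with 1 line per library. Isl1 in Ho1 went from 13.2 to 20.3 CPM and stayed below the other libraries, while Wt1 moved towards the others for Six2, Eya1, Prdm1 and Tlx1. The right points of Ho1 rest in part on 35 Crabp1 cells, which held 32 Isl1 UMIs.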

How the data were processed

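The authors deposited raw UMI counts per gene and cell from 2 Wt and 2 Ho 10x 3' libraries of E10.5 hearts, made with Cell Ranger 6.1.1 on mm10 (GRCm38), and the submitters' processing notes also name Seurat 4.1.0. The members and gene lists were chosen with earlier results of these data known. Cells were kept with at most 20% mitochondrial UMIs, 500 to 50000 UMIs and 500 to 6000 genes, following the study's methods, and the cells with the highest Scrublet scores were removed at 0.8% per 1000 cells. Counts were summed per gate and library. Ho and Wt were compared with edgeR 4.0.16 (TMM, filterByExpr, quasi-likelihood test, Benjamini-Hochberg), as were gates (library as a block, all libraries) and their interaction, in place of the study's test on single cells, because cells are not replicates. An adjusted p under 0.05 was a call. A gate of a library with under 20 cells stayed out of the fits. Fold changes of Ho against Wt are given for members with at least 50 UMIs in a gate. Intervals and limits cover counting error only. Scripts were tested on simulated data. Alternatives used DESeq2 1.42.0, other filters, gates and normalizations. Named genes were all members, network genes called or among the 3 largest per gate (some are not reported here), and, for each member, the 3 genes most like it in pattern among those with at least 50 UMIs. Fits used R 4.3.3 and Python 3.11.15. Sequences came from RefSeq.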

Additional observations from a re-analysis of the deposited data

Results flagged for a closer look

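Many UMIs of the members lay in cells outside the 6 gates, which the main comparisons between gates did not use. In cells that passed no marker, 7298 UMIs of Isl1, 737 of Tbx1, 299 of Six2, 374 of Eya1, 45 of Prdm1, 283 of Tlx1, 1859 of Foxc1 and 915 of Foxc2 were counted over the 4 libraries. In cells that passed the markers of several gates, there were 1536 UMIs of Isl1, 87 of Tbx1, 7 of Six2, 49 of Eya1, 51 of Prdm1, 209 of Tlx1, 83 of Foxc1 and 49 of Foxc2. In these mixed cells Tlx1 reached 19.7 ± 11.1 CPM (SD, n = 4) and Isl1 140 ± 60.8 CPM.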

How the results depend on the processing

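Of 276 alternative values for members between gates, 269 kept direction and side of the threshold, 7 lost the call and none reversed. Those lost were in Shox2 cells Isl1 without the library block or Ho1 and Six2 without the block, Wt2 or Ho2, in Epcam cells Foxc1 without Ho2, and in Cdh5 cells Tlx1 without Wt1. Counts of genes called between Ho and Wt (main values 7 in Tnnt2, 3 in Shox2, 303 in Epcam and 0 elsewhere) moved most. DESeq2 called 28 in Tnnt2, 1 in Crabp1, 19 in Epcam, 22 in Cdh5, 1 in Stmn4 and 21 in whole libraries, and no filter on low counts gave 275, 131, 135, 73, 232 and 109 in Tnnt2, Shox2, Crabp1, Epcam, Cdh5 and Stmn4 cells. Doublets kept gave 0 in Tnnt2, 0 in Shox2 and 102 in Epcam cells, doubled limits 61 in Epcam, at least 10 UMIs in every library 163 in Epcam, and overlapping gates 3 in Tnnt2. The wider Shox2 gate, with or without Tnnt2, Crabp1 or Stmn4, gave 1. Genes lower in Crabp1 cells fell from 3315 to 1919 with overlapping gates. The interaction called 9 genes with doubled limits and 7 with doublets kept. Leaving out 1 library at a time gave 48 to 160 calls in Tnnt2, 0 to 338 in Shox2, 0 to 5 in Crabp1, 0 to 87 in Cdh5, 28 to 313 in Stmn4 and 0 to 5 in whole libraries, and 0 to 33 for the interaction; in Epcam cells, leaving out any of the 3 libraries leaves no residual degrees of freedom or no Ho library, and it and the block were not run. The cause of these moves was not tested.

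Deviations of same-numbered libraries from their group means had correlations from -0.46 in whole libraries to 0.07 in Stmn4 cells. Each gate gives a single correlation, because the deviations of 2 libraries mirror each other. Wt1 and Ho1 also differed in their shares of cells. Whether the numbers pair libraries can thus not be decided from these values. With the replicate number as a block, 6 genes were called in Shox2 and 2 in Stmn4 cells, 7 in Tnnt2 cells and 0 in Crabp1 and Cdh5 cells and whole libraries, and the block reversed Isl1 in Shox2 cells (0.00038), Six2 in Crabp1 cells (0.53) and Prdm1 in Cdh5 cells (0.0272). A crossed replicate block, chosen after seeing the data, called 94 in Tnnt2, 37 in Shox2, 50 in Cdh5, 72 in whole libraries and 0 in Crabp1 and Stmn4 cells.

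Fold changes near 0 reversed easily. Isl1 in Shox2 cells (-0.01) became 0.0058 with no filter, 0.00046 with at least 10 UMIs, 0.0621 with doublets kept and 0.0381 with doubled limits. Prdm1 in Cdh5 cells (-0.01) became 0.0145 with DESeq2, 0.0487 with doublets kept, 0.50 with doubled limits and 0.0572 with overlapping gates. With doubled limits Isl1 (0.39), Tbx1 (0.24), Eya1 (0.0499) and Foxc1 (0.53) were reversed in Crabp1 cells. That fit also lost Ho1, which then had 15 such cells, so the limits were not the only change. Doublets kept reversed Foxc1 in Crabp1 (0.0051) and Foxc2 in Stmn4 cells (0.0177). Overlapping gates reversed Tlx1 in Crabp1 cells (0.18), and the wider Shox2 gate, with or without Tnnt2, Crabp1 or Stmn4, reversed Foxc1 (-0.12). The difference of Ho and Wt in the share of cells with Isl1 in the Shox2 gate went from 0.00189 to -1.82 percentage points with thinning to 5000 UMIs and -6.04 with none, and that of Tlx1 in the Tnnt2 gate from 0.102 to -0.653 and -0.607.

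Leaving out 1 library reversed the following, given as lowest and highest log2 fold change. In Tnnt2 cells they were Eya1 (-0.54 to 0.35) and Tlx1 (-1.19 to 0.0888), in Shox2 cells Isl1 (-0.34 to 0.41), and in Crabp1 cells Isl1 (-1.30 to 0.63), Tbx1 (-1.97 to 0.58), Six2 (-8.38 to 1.60), Tlx1 (-1.18 to 0.48) and Foxc1 (-1.38 to 0.31). In Cdh5 cells they were Isl1 (-1.69 to 0.23), Prdm1 (-0.23 to 0.24) and Tlx1 (-0.69 to 0.28), and in Stmn4 cells Isl1 (-0.99 to 0.10), Foxc1 (-0.76 to 0.05002) and Foxc2 (-0.0945 to 0.0766). In whole libraries they were Six2 (-5.46 to 1.00), Prdm1 (-1.60 to 0.56), Tlx1 (-1.91 to 0.00600) and Foxc2 (-0.0349 to 0.44). At equal composition they were Isl1 (-1.69 to 0.0388), Six2 (-4.86 to 0.77), Prdm1 (-0.97 to 0.46), Tlx1 (-1.23 to 0.12) and Foxc1 (-0.47 to 0.13). Isl1 in Tnnt2 cells kept its direction in all settings, at -0.89 without Wt1, -1.05 without Wt2 and -1.82 without Ho2. The value without Ho1 is given above. Without Ho2, Isl1 and Tbx1 stood at -1.69 and -2.88 in Cdh5 cells, and Isl1 and Foxc1 at -0.99 and -0.76 in Stmn4 cells. Each of these fits leaves 1 library in a group, so no call is read from them. With no filter Isl1 was called in Tnnt2 cells (-0.96), among 275 of 20994 genes. Isl1 and Tbx1 were then called in Cdh5 cells (-0.48 and -1.01), among 232 of 20565 genes. With overlapping gates Tlx1 stood at -2.63 in Epcam cells, where Ho2 is the only Ho library.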
